A study of Mus musculus with 3 samples.

Results

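The regions described here are the glucocorticoid receptor (GR) ChIP-seq peaks of GR(i)skm-/- mouse skeletal muscle that lie on cytosine-adenine (CA) repeats far from gene starts. A peak was included when perfect tandem tracts of units of 1 to 6 bp covered at least 50% of it, CA on either strand was the unit covering most bases, and the summit was over 5000 bp from every protein-coding transcript start. Tracts had at least 3 units and 8 bp. By this rule 515 of the 3087 listed GR peaks (16.7%) were distal CA peaks, and genic and intergenic ones were both kept. Another 76 CA peaks lay nearer to a start. The sequence content and the distance chose the peaks, so neither is a finding. At the edges of the rule, the lowest tandem cover was 50% (nearest gene Tspan2, 15.4-fold) and the shortest distance to a start 5060 bp (Ptchd4, 14.1-fold). Just outside lay a CA-led peak with 49.2% cover (Plekha2, 14.8-fold) and a CA peak 4974 bp from a start (Amotl1, 31.7-fold).

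All samples were skeletal muscle of C57/Bl6J mice aged 10 to 12 weeks. GR(i)skm-/- muscle, titled as GR knockout, was the source of the GR library, whose antibody recognises the C-terminal end of the protein. Wild-type (WT) muscle was the source of a library for H3K27me3, the histone mark of Polycomb silencing. The input of GR(i)skm-/- muscle was not analysed here. Each group had 1 library, so no value has a replicate and no peak was compared between genotypes. The driver of the deletion, any pooling of animals and the cell types that keep the receptor are not given in the sources used here. A peak list cannot show whether the receptor was lost, and it holds no marker levels of muscle or other cells.

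GR, encoded by Nr3c1, is a hormone-activated transcription factor. It classically binds as a dimer to a palindromic response element, and in muscle it is known for its part in protein breakdown and glucose handling. CA repeats are among the most common microsatellites of mammalian genomes. They change in length by slippage of the DNA polymerase, and base substitutions break them into shorter runs. Long alternating purine-pyrimidine runs such as CA can adopt the left-handed Z form of DNA.

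8 stretches of 150 bp centred on a summit are printed here because the results turn on how the repeat is built. Each was read from mm10 on the strand that carries CA, 5′ to 3′, with CA tracts of at least 8 bp in capitals, including those that the ends of the window shorten. The first 6 belong to the peaks of highest fold enrichment. They were named by the gene of the nearest start and lay at chr4:124869348-124869497 (minus strand), chr15:37541836-37541985 (plus), chr6:102778629-102778778 (minus), chr17:3702697-3702846 (plus), chr8:119304987-119305136 (minus) and chr4:117237067-117237216 (minus). All 6 show CA runs that other bases break. Near Maneal and Nox3 the breaks include guanine-adenine runs of over 10 bp, and those peaks held 146 and 53 bp of guanine-adenine tracts.
Maneal: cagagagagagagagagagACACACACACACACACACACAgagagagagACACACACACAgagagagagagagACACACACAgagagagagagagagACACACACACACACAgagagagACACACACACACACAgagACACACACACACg
Ncald: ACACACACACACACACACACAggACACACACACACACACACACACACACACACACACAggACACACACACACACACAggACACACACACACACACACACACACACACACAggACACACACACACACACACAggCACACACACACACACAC
Cntn3: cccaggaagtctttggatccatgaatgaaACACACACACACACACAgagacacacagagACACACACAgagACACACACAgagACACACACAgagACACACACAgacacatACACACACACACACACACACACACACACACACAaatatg
Nox3: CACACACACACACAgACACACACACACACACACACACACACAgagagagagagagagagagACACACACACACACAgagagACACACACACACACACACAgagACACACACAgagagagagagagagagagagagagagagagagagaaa
Hsbp1: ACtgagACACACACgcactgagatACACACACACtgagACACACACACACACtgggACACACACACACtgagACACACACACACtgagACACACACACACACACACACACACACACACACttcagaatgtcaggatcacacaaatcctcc
Armh1: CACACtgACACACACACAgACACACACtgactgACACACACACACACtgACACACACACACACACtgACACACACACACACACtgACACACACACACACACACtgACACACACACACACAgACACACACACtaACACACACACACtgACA

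The other 2 stretches each show a kind of repeat that the counts separate. The one near Homer1 (chr13:93320805-93320954, plus strand) has its summit in an array of 1 perfect tract. The one near Rorb (chr19:19663215-19663364, plus) belongs to an array of over 100 CA bases that gg breaks, giving the dinucleotide CG.
Homer1: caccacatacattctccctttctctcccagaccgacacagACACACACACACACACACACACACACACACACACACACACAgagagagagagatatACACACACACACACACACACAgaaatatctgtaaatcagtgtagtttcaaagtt
Rorb: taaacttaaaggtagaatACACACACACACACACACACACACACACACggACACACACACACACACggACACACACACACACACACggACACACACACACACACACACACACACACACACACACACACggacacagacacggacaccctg

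Distal CA peaks, like the list as a whole, were short and rested on few reads. The lowest number of reads at a summit was 12, the median 17 and the highest 85, recovered from the deposited fold enrichment and p-value. A total of 207 of the 515 (40.2%) rested on 12 to 15 reads, and 47 (9.13%) had at least 30. All listed peaks also had a lowest number of 12 and a median of 17. Their quartiles were 14 and 23, beside 14 and 21.5 for distal CA peaks. The fold enrichment over the local background, which is the authors' value, ran from 12.1 to 64.9 with a median of 15.9. Its formula adds 1 read to the summit and to the background, and the background had a median of 0.075 reads, so the fold mostly follows the read number. Peak width ran from 50 to 688 bp with a median of 67 bp, the list as a whole having a median of 68 bp.

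The strongest distal CA peak lay 7.252 kb from the start of Maneal, a gene of the mannosidase family, with 85 reads and a fold enrichment of 64.9. Its 320 bp held 146 bp of guanine-adenine (GA) tracts among the CA tracts, as the lower-case runs in its sequence show. Next came a peak in an intron of Ncald, which encodes the calcium sensor neurocalcin delta, with 67 reads (56.9-fold). It lay in an array of 926 CA bases split into 40 perfect tracts, and a weaker peak (13.1-fold) lay in the same gene. Intergenic peaks followed near Cntn3, a neural cell adhesion gene (56 reads, 53.5-fold), and Nox3, an NADPH oxidase of the inner ear (55 reads, 46.8-fold). The fifth, in an intron of the cadherin gene Cdh13, had 57 reads (46.0-fold), and its nearest start was that of Hsbp1, which encodes a binding protein of heat shock factor. The sixth lay in an intron with the start of Armh1 nearest (44 reads, 41.3-fold).

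The remaining peaks among the 20 of highest fold ran from 41.2-fold near C87436 down to 32.3-fold near Pmpcb, which encodes a subunit of the mitochondrial processing peptidase. Among those between lay peaks near Nrd1 (the protease nardilysin, 38.9-fold), C530008M17Rik (38.9-fold), Rorb (an orphan nuclear receptor, 37.6-fold) and Rftn1 (the lipid raft protein raftlin, 36.4-fold). Kcnn3, a calcium-activated potassium channel, was nearest to a peak of 36.3-fold, as was Dsel, and Got2, the mitochondrial aspartate aminotransferase, to one of 36.0-fold. Dnah14, an axonemal dynein gene, held a peak of 35.1-fold. Ptger4, a prostaglandin E2 receptor, stood nearest to a peak of 33.6-fold, Mbd2, a reader of methylated DNA, to one of 32.9-fold, and Dab2ip, a Ras GTPase-activating protein, to one of 32.8-fold. Of the 20, 9 lay in introns, 15 had an array of at least 4 perfect tracts, 18 were wider than the list median and 3 held at least 12 bp of GA tracts. Over all distal CA peaks, 41.7% lay in introns and 58.4% of those with an array had at least 4 tracts. A share of 49.3% were at least as wide as the list median, and 21 of 515 (4.08%) held at least 12 bp of GA tracts.

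To describe the repeats under the peaks, CA tracts of at least 8 bp on one strand were merged into arrays across gaps of up to 10 bp, and arrays of at least 20 CA bases were kept. Of the 515 distal CA peaks, 512 overlapped such an array, 389 of them exactly 1. For each peak the array at the summit was taken or, where none held it, the one with the most CA bases. It had between 22 and 1141 CA bases with a median of 81.5, while the 289246 distal arrays of the genome had a median of 38. Part of that gap is set by the rule, since a peak cannot be covered by a repeat much shorter than itself. The longest perfect tract within the array was close in both, with a median of 34 bp under the peaks and 33 bp across the genome. The number of perfect tracts per array was higher, with a median of 4 (highest 70) under the peaks and 1 (highest 90) across the genome. Neither this number nor the shares that follow are matched for CA bases, so the rule sets part of those gaps as well. Of the 3825 distal arrays of the genome with at least 100 CA bases, 3492 had at least 4 tracts. An array of 1 perfect tract lay under 38 of the 512 peaks (7.42%), such as the one near Homer1, a gene for a scaffold of synapses, and made up 62.8% of all distal arrays. The peak near Homer1 overlapped 2 arrays with a GA run between them. A count of 1 tract thus describes the array taken and not the whole peak. Arrays of at least 4 tracts lay under 299 peaks (58.4%) and made up 4.93% of all.

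Since the inclusion rule favours long repeats, every distal CA array of the genome was then asked whether it overlapped any listed GR peak, whatever that peak's class. Of 289246 arrays, 815 (0.282%) did so, and 680 of the 815 (83.4%) overlapped a distal CA peak. The share rose with the number of CA bases. It was 0.137% (215 of 157198; exact 95% interval 0.119 to 0.156%) at 20 to 39 CA bases and 0.162% (177 of 109266) at 40 to 59. It reached 0.862% (133 of 15424) at 60 to 79, 2.49% (88 of 3533) at 80 to 99 and 5.28% (202 of 3825; 4.59 to 6.04%) at 100 and more. A longer array also offers more bases to overlap. Arrays that held a summit numbered 6.20 per Mb of array span in the shortest class, 96.6 per Mb at 60 to 79 CA bases and 244 per Mb in the longest, so the order held per base as well. Distal GA arrays overlapped a listed peak more often, in 1878 of 128480 (1.46%), from 0.828% in the shortest class to 15.2% in the longest. The arrays are a census and not replicates, and the intervals cover counting error only.

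**Figure D1:**
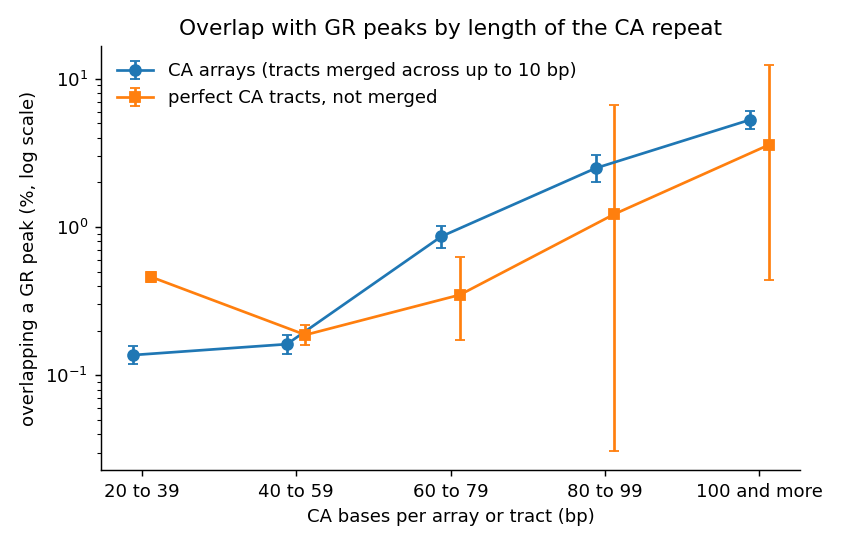
Share of distal CA repeats that overlapped a listed GR peak (percent, log axis) by the number of CA bases, for arrays merged across gaps of up to 10 bp (circles) and for perfect tracts left unmerged (squares); bars are exact 95% intervals. Merged arrays rise from 0.137% to 5.28%, while perfect tracts of 20 to 39 bp, at 0.460%, lie above those of 40 to 59 bp and of 60 to 79 bp. Perfect tracts of 80 to 99 bp (1.22%, 1 of 82) and of 100 bp and more (3.57%, 2 of 56) lie higher, with wide intervals.

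Below 80 bp, the order depended on counting broken repeats as one. When perfect tracts were left unmerged, those of 20 to 39 bp overlapped a peak in 0.460% (706 of 153392), those of 40 to 59 bp in 0.187% and those of 60 to 79 bp in 0.348% (11 of 3157). Few perfect tracts were longer. At 80 to 99 bp, 1 of 82 overlapped a peak (1.22%; 0.0309 to 6.61%), and at 100 bp and more 2 of 56 did (3.57%; 0.435 to 12.3%). These shares are higher, but rest on too few tracts to place those classes in the order. Only 12 of the 512 peaks (2.34%) had a perfect tract of at least 60 bp in their array, beside 1.13% of all distal arrays. An array of at least 60 CA bases, by contrast, lay under 377 of the 512 peaks (73.6%) and made up 7.88% of all. The distal CA peaks thus lay mostly on long arrays made of shorter perfect runs.

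At 40 to 79 CA bases, broken arrays overlapped GR peaks more often than unbroken ones with a like number of CA bases. The bases of the breaks add to the span of an array, and these shares were not taken per base. At 40 to 59 CA bases, the share was 0.0595% (45 of 75574) for 1 perfect tract, 0.227% (53 of 23358) for 2, 0.654% (40 of 6115) for 3 and 0.924% (39 of 4219; 0.658 to 1.26%) for 4 and more. At 60 to 79 CA bases, 1 of 2554 unbroken arrays (0.0392%; upper bound 0.218%) overlapped a peak, and 56 of 3211 with at least 4 tracts (1.74%; 1.32 to 2.26%) did. The gap was less clear in other classes. At 80 to 99 CA bases, the share was 0 of 53 for 1 tract, 1.63% (0.816 to 2.90%) for 2 and 2.83% (2.15 to 3.66%) for 4 and more. At 20 to 39, it was 0.112% for 1 tract and 0.369% (5 of 1354; 0.120 to 0.860%) for 4 and more. Of arrays with 100 CA bases and more, 193 of 3492 with at least 4 tracts (5.53%) overlapped a peak, but none of 17 with 1 tract (upper bound 19.5%) and none of 68 with 2 tracts (upper bound 5.28%) did, so few arrays of that length bear on the comparison. This split was chosen after values were seen. The share of 31-mers in the array that occur once in the genome moved with it, from a median of 20.8% for 1 tract to 52.5% for 4 and more at 40 to 59 CA bases. Within the class of 60 to 79 CA bases, 0.755% of arrays with under 10% unique 31-mers and 1.24% of those with at least 50% overlapped a peak. At 20 to 39 CA bases the order was the opposite, 0.473% and 0.0284%. The part of read placement in these shares was not tested.

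**Figure D2:**
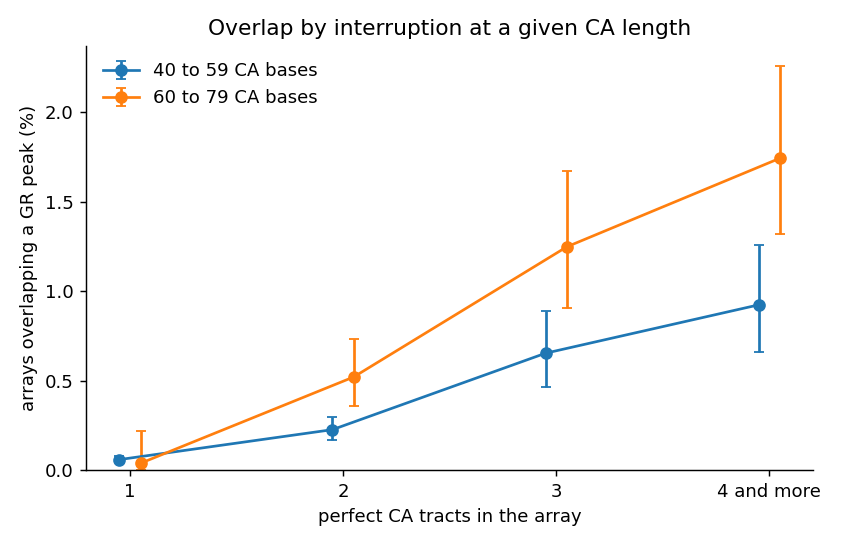
Share of distal CA arrays that overlapped a listed GR peak (percent) by the number of perfect CA tracts in the array, for arrays of 40 to 59 and of 60 to 79 CA bases; bars are exact 95% intervals. In both length classes the share climbs with each added tract, from 0.0595% to 0.924% and from 0.0392% to 1.74%.

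The bases that broke the repeats differed as well. Among the arrays of at least 60 CA bases and at least 2 tracts, 410 lay under distal CA peaks and 20158 in the genome. A G in place of A, which creates CG, occurred in 17.3% of those under the peaks and 7.78% of all. Breaks of 2 to 10 bases with a CG, such as the gg runs of the array near Rorb, occurred in 29.8% and 12.7%. Breaks of that length without CG, such as the gg runs at Ncald, occurred in 75.6% and 52.1%. A T in place of C was rarer under the peaks, at 20.2% and 39.8%. G in place of C stood at 16.8% and 16.5%. Arrays under the peaks had more breaks in all, so the same was counted per break over arrays of every length. Arrays of many tracts weigh more in that count. Of 2960 breaks under the peaks, 6.89% were T in place of C, 8.14% were G in place of A and 13.4% were longer breaks with CG. Of 186944 breaks in the genome, these made up 21.6%, 3.68% and 6.34%. Longer breaks without CG were 1296 of the 2960 and 74827 of the 186944, a smaller gap.

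**Figure D3:**
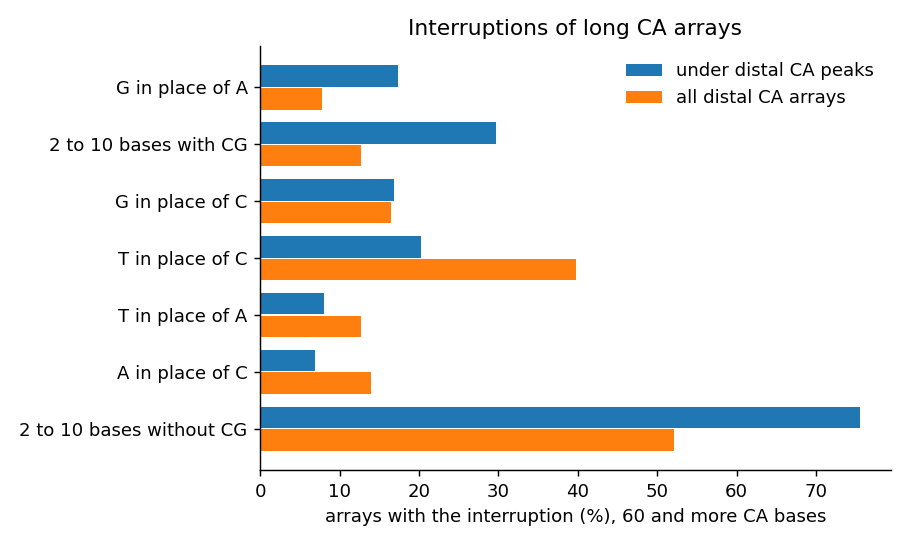
Percent of CA arrays of at least 60 CA bases and at least 2 tracts that held each kind of break, for the 410 under distal CA peaks (blue) and all 20158 distal arrays (orange). Breaks of 2 to 10 bases with CG (29.8 and 12.7%) and without CG (75.6 and 52.1%) and G in place of A are more common under the peaks, and T in place of C (20.2 and 39.8%) is less common.

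An array with CG lay under 157 of the 512 peaks (30.7%) and made up 5.37% of all distal arrays. Of arrays with at least 60 CA bases, 145 of 3677 with CG (3.94%) and 278 of 19105 without (1.46%) overlapped a listed peak. At 100 CA bases and more with at least 4 tracts, the shares were 9.38% (83 of 885) and 4.22% (110 of 2607), with intervals of 7.54 to 11.5% and 3.48 to 5.06%. The gap was smaller and its intervals overlapped at 60 to 79 CA bases with at least 4 tracts, 2.12% (15 of 708; 1.19 to 3.47%) with CG and 1.64% (41 of 2503; 1.18 to 2.22%) without. Of all arrays of 20 to 39 CA bases, 33 of 6370 with CG (0.518%) and 182 of 150828 without (0.121%) overlapped a peak. Those of that length with at least 4 tracts stood at 0 of 209 (upper bound 1.75%) and 5 of 1145 (0.437%), too few to give an order. Here too, unique 31-mers were more common in the arrays with CG, with medians of 18.1% and 10.9% in the longest class, and their part was not tested. Peaks with CG in the array had a median of 16 reads and those without 17. The CG split was chosen after values were seen.

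Neighbouring repeats of other units were also counted. A GA tract of at least 12 bp stood within 50 bp of the array under 53 peaks (10.4%), beside 12.7% of all distal arrays, and 488 of the 515 peaks (94.8%) held no GA tract. CA arrays with and without a GA tract nearby overlapped listed peaks in 0.315% and 0.277%, an order that turned round when the overlap had to be at least 10 bp (by -0.0173 percentage points). By length, the shares were 0.218% (0.161 to 0.288%) and 0.123% (0.105 to 0.143%) at 20 to 39 CA bases. They were 0.258% and 0.150% at 40 to 59, 0.901% and 0.858% at 60 to 79, and 5.86% and 5.24% at 100 and more. Distal CA peaks overlapped 72 of the 116 arrays with GA nearby that met a peak, and 608 of the 699 without. CAGA tracts stood near the array under 24 peaks (4.69%) and near 2.08% of all arrays. Arrays with a CAGA tract nearby overlapped a listed peak in 0.864% (52 of 6020) and those without in 0.269% (763 of 283226). A distal CA peak overlapped 30 of the 52 and 650 of the 763, and the rest met listed peaks of other classes only. For TA tracts the shares overlapping a listed peak were 0.127% (16 of 12635) and 0.289%. They were 0.0591% (5 of 8458) and 0.141% at 20 to 39 CA bases, and 0.759% (3 of 395) and 0.865% at 60 to 79. At 100 and more the order was the opposite, 6.98% (3 of 43; 1.46 to 19.1%) and 5.26%.

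Among the listed peaks, the read number at a summit differed little with the length and breaks of the array. Peaks on arrays of 20 to 39 and of 40 to 59 CA bases each had a median of 15 reads, and those of all 3 longer classes had 17. The median was 14 reads for the 38 peaks on 1 tract, 17 for the 175 on 2 or 3 tracts and 17 for the 299 on 4 and more. The highest values in those groups were 27, 55 and 85 reads. Width differed more, with medians of 60, 61 and 79 bp. Each group began at 12 reads, which is the lowest number in the whole filtered list, and all of them overlapped. These medians cover only peaks that passed the filter, so they do not show how reads depend on length over all arrays. The gap was wider for GA content: the 20 peaks with an array and at least 12 bp of GA tracts had a median of 21.5 reads (quartiles 13.8 and 24.2), and the 486 with none had 17. The one near Maneal, with 85 reads, is among those 20.

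**Figure D4:**
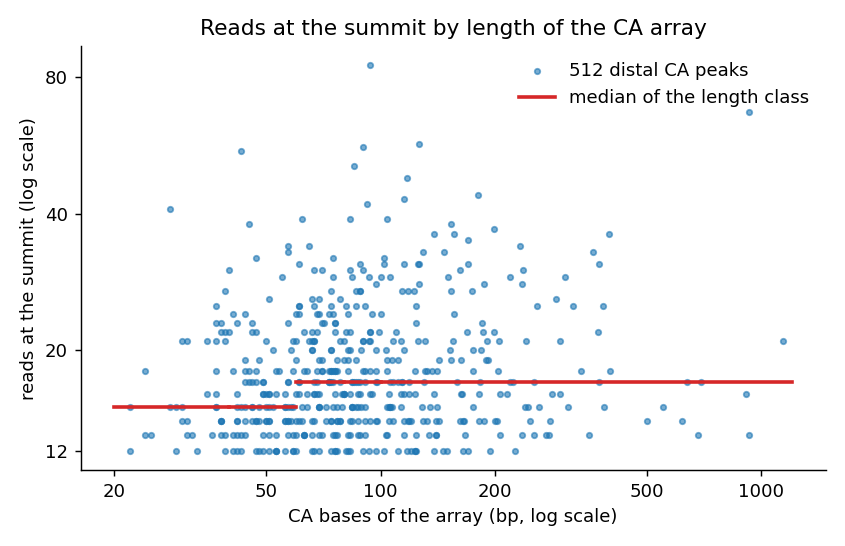
Reads at the summit (log axis) against the CA bases of the array (bp, log axis) for 512 distal CA peaks; red lines are medians within length classes. The cloud is broad in every class, from 12 reads upward, and the medians step only from 15 to 17 reads.

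The inclusion rule places most summits in or near CA runs, so their position is a description. CA tracts covered a mean of 77.4% of a peak's bases. A CA tract of at least 8 bp held the summit of 366 of the 515 peaks (71.1%), and a CA array that of 443 (86.0%). The summit lay a median of 15 bp from the array centre. Read along the CA strand, it fell before the centre in 273 of 512 peaks and past it in 233. CA was on the forward strand of the genome in 248 of 512 (48.4%; exact 95% interval 44.0 to 52.9%). For the 213 peaks in a single host gene with an array, CA was on the coding strand in 94 (44.1%; 37.4 to 51.1%). Neither interval excludes an even split.

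Many of the sequences are not unique in the genome. No 31-mer inside the peak was unique for 157 of the 515 (30.5%). The 31-mers of a peak had a median of 10 positions, beside 10 for all listed peaks and 13 for distal GA peaks. Reads that reach beyond the repeat can still be placed. At least 50% of the 31-mers in the 100 bp on both sides were unique for 326 peaks (63.3%), beside 63.1% of all listed peaks, and on at least 1 side for 455 (88.3%). A group of 12 (2.33%) had no unique 31-mer in either flank. Peaks with both flanks unique had a median of 17 reads and the others 16. Reads with several matches may have been kept or dropped, which is not given in the sources used here.

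Distal CA peaks were compared with the 1329 distal GA peaks of the same list by 5 two-sided Fisher's exact tests with Benjamini-Hochberg adjustment. These tests compare classes of peaks within 1 library. A summit inside a protein-coding gene was found for 216 of 515 CA peaks (41.9%; 37.6 to 46.3%) and 440 of 1329 GA peaks (33.1%; 30.6 to 35.7%), beside 36.8% of all listed peaks. The difference was 8.83 percentage points (Fisher's exact test, adjusted p = 0.00212). By the same exact test it was 4.04 points with a tandem cover of at least 80% (adjusted p = 0.478) and 5.72 points among peaks with a -log10 q of at least 30 (adjusted p = 0.352). The repeats themselves differed in the same direction, since 38.3% of all distal CA arrays and 32.6% of all distal GA arrays lay in such genes.

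At least 17 reads, the list median, were reached by 51.8% of CA and 50.6% of GA peaks (Fisher's exact test, adjusted p = 0.678), beside 54.0% of the list. At least 40 reads were reached by 11 CA peaks (2.14%) and 66 GA peaks (4.97%), a description with no test. A width of at least 68 bp was found for 49.3% and 53.5% (Fisher's exact test, adjusted p = 0.179), beside 51.7% of the list. Unique flanks were found for 63.3% and 64.7% (Fisher's exact test, adjusted p = 0.678). None of these 3 differences passed the threshold, which does not show that the classes are alike.

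The X chromosome held few distal CA peaks, 6 of 515 (1.17%; 0.429 to 2.52%), beside 48 of 1329 GA peaks (3.61%; 2.67 to 4.76%) and 3.27% of the list. This comparison was added after values were seen (Fisher's exact test, adjusted p = 0.0124). By the same exact test the difference of -2.45 points became -1.79 with 80% tandem cover (adjusted p = 0.406) and -2.00 at a -log10 q of at least 30 (adjusted p = 0.352). Per array, 10 of 12448 CA arrays on the X (0.0803%; 0.0385 to 0.148%) and 804 of 269148 on autosomes (0.299%) overlapped a listed peak. Single autosomes ran from 0.230% on chromosome 10 to 0.391% on chromosome 19, so the X lay under all 19. Of arrays with at least 60 CA bases, 6 of 721 on the X (0.832%; 0.306 to 1.80%) and 416 of 20508 on autosomes (2.03%) did so. Distal GA arrays stood at 0.932% on the X and 1.54% on autosomes. The sex of the animals is not given in the sources used here.

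**Figure D5:**
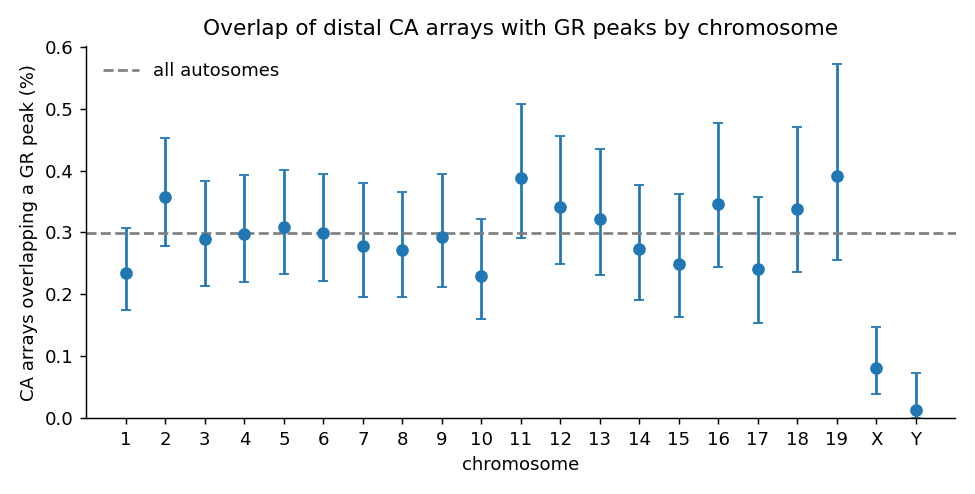
Share of distal CA arrays that overlapped a listed GR peak (percent) on each chromosome, with exact 95% intervals; the dashed line is all autosomes (0.299%). The X (0.0803%) and the Y (0.0131%) lie under every autosome.

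The 6 peaks of the X ran from 12 to 25 reads. One near the protocadherin gene Pcdh19 had 23 reads (22.5-fold). An intron of Hs6st2, a heparan sulfate sulfotransferase gene, held a peak of 20 reads. Dmd, which encodes dystrophin of the muscle fibre membrane, held one of 16 reads (16.0-fold) in an intron at chrX:84538288-84538341. Peaks near Gm7073 and Rtl8b had 13 and 12 reads. The Y held 1 distal CA peak, of 12 reads, and 1 of its 7650 arrays overlapped a listed peak, beside a median of 0% unique 31-mers in arrays of that chromosome.

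By the GENCODE vM21 annotation, 255 distal CA peaks (49.5%) were intergenic, 215 (41.7%) intronic, 44 (8.54%) in non-coding genes and 1 in an untranslated region, that of Shq1. None of 515 lay in coding sequence, which allows a share of up to 0.714% (exact). The nearest protein-coding start was a median of 56.7 kb away, over 100 kb for 180 peaks and 5 to 10 kb for 49 (9.51%). The peaks were scattered. Only 14 had another distal CA peak within 10 kb before them, and 12 of these within 1 kb.

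Of 21911 protein-coding genes, 204 (0.931%) held a distal CA peak in the body. Their median length was 166.7 kb, that of all genes 17.4 kb. Camk1d, a calcium/calmodulin-dependent kinase gene, held 3 peaks across 43.5 kb (16.6- to 29.1-fold), and Tenm2, for the adhesion protein teneurin-2, held 3 across 180.5 kb (12.2- to 19.7-fold). Pairs lay in Bri3, Fam49a, Inpp5k, Ncald, Rftn1, Sh3rf1, Snd1, Thada and Tshz2. All these pairs but that of Bri3 lay within 1 kb.

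Gene lists for muscle and for the other cells a muscle sample holds were read for peaks in gene bodies. Of 40 contractile and calcium-handling genes, 1 (Dmd) held a distal CA peak. Of 40 glucocorticoid-induced genes, 1 did, namely Foxo3, the transcription factor of atrophy genes, with 15 reads (14.4-fold) at chr10:42208998-42209049. Among 18 myogenic regulators the only one was Eya2, a transcriptional cofactor of myogenesis, with 29 reads (27.4-fold) on an array of 219 CA bases in 14 tracts. None of 31 muscle energy genes and none of 15 satellite cell genes held one. With lists of this size, counts of 0 and 1 give little precision beside the 0.931% of all genes.

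Lists of other cell types gave similar counts. Of 22 leukocyte genes, 1 held a distal CA peak, the chemokine receptor gene Cx3cr1 (15.8-fold), where the start of Csrnp1 was nearest. Of 44 neuronal genes, 2 did, the glutamate receptor gene Grin2a (13.1-fold) and the splicing factor gene Rbfox1 (24.6-fold, 30 reads). Endothelial and fibroblast genes, 20 in each list, held none. The neuronal genes had a median length of 486.8 kb and the contractile genes 22.7 kb.

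The distances to 9 known receptor targets and muscle genes were read as well. The nearest distal CA peak was 5526 kb from a start of Fkbp5, the classic glucocorticoid-induced co-chaperone, 1088 kb from the clock gene Per1 and 6779 kb from Tsc22d3, which encodes the hormone-induced leucine zipper GILZ. For Nr3c1 itself the distance was 3039 kb. The muscle ubiquitin ligase genes Trim63 and Fbxo32 stood 2094 and 2316 kb away, and the muscle genes Myod1, Acta1 and Ckm 1107, 2187 and 9521 kb. None of the 9 had one within 1000 kb, beside 6583 of 21829 protein-coding genes (30.2%) that did. The median distance over all those genes was 1860 kb (quartiles 796 and 3790 kb), so spacings of this size are common.

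The palindromic response element of the receptor, which is AGAACA and TGTTCT with 3 bases of any kind between, searched on both strands in 200 bp around the summit, was found in 0 of 515 distal CA peaks, also with 1 mismatch allowed, which allows a share of up to 0.714% (exact). With 1 mismatch it stood in 0.0648% of all listed peaks (2 of 3087) and in 0.0761% of equal windows at all distal CA arrays. With 2 mismatches it stood in 6 peaks (1.17%) and 1.08% of arrays. The single arm AGAACA, which the palindrome contains, stood in 42 peaks (8.16%; 5.94 to 10.9%), in 9.48% of arrays with at least 60 CA bases and in 13.3% of all arrays. The window holds less non-repeat sequence where the array is long.

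Other motifs were also sparse. CAGCTG, the E-box of myogenic factors, stood in 9 peaks (1.75%) and in 2.41% of arrays with at least 60 CA bases. The AP-1 site TGANTCA stood in 5 (0.971%) and 3.67%. CACGTG, the E-box of clock factors, stood in 17 (3.30%) and 3.55%. CACGTG and the CA runs share letters, so a CG break of a repeat can complete it. A match is a description of the letters, and a missing match says nothing about the factor.

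None of the 515 distal CA peaks overlapped an H3K27me3 region of WT muscle, which allows a share of up to 0.714% (exact), beside 19 of all 3087 listed GR peaks (0.615%). None lay within 1000 bp of one. The closest was a peak of 13 reads (13.1-fold) at chr13:10187131-10187186, with the start of Chrm3, a muscarinic acetylcholine receptor gene, nearest. It lay 7.358 kb from a region of 12.5-fold enrichment at chr13:10179522-10179772. Of the 399 H3K27me3 regions, 6 themselves lay on CA repeats and 20 on tandem repeats of any unit. The lists differ in genotype, antibody and library, so their overlap compares no condition.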

How the data were processed

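ChIP-seq peak lists of 1 GR library (GR(i)skm-/-) and 1 H3K27me3 library (WT) were used. Per the submitters' processing notes, bcl2fastq 2.17.1.14, Bowtie 1.0.0 and MACS2 were used with mm10. The control used in calling is not given in the sources used here. The deposited values are a score, a ratio (fold enrichment over local background), and the −log10 p-value and −log10 q-value of each peak. All −log10 q in the GR list are at least 20 and its peak numbers run to 12933, so the authors deposited a filtered list. Read totals are unknown.

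Reads at each summit were solved from fold and p under the Poisson model of MACS2, within 0.001 for all 3087 peaks. Repeats, 31-mers and motifs were read from GRCm38 (mm10), and genes from GENCODE vM21. Unique 31-mers were counted over both strands. Shares carry exact Clopper-Pearson 95% intervals, for counting error only. Scripts, tested on simulated data, ran in Python 3.11.15 with scipy 1.17.1, numba 0.67.0, numpy 2.4.6, matplotlib 3.10.9 and pandas 2.3.3. Genes named were those nearest to the 20 peaks of highest fold, members of 9 lists (250 genes) with a peak in the body, and 9 receptor target and muscle genes. Some items that these rules name are not reported here. Genes with several peaks, genes on the sex chromosomes and genes at the rule's edges or nearest H3K27me3 were named after their values were seen. The peaks, lists and tests were chosen with earlier results of these data known. Alternatives changed tandem cover, distance, tract length, q, reads, array merging and overlap.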

Additional observations from a re-analysis of the deposited data

How the results depend on the processing

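No paired analysis was possible because each group had 1 library, and none could be left out. Under the alternatives, 35 recomputed values stayed within the set limits, 19 moved beyond them, 9 changed direction, 4 lost a call and 1 gained one. A -log10 q of at least 30 left 239 distal CA peaks. CA minus GA differences, in percentage points, moved as follows. In-gene shares lost the call at 80% cover (4.04) and at that q (5.72), as did the X share (-1.79 and -2.00). The width share turned to 3.33 at 80% cover and 4.40 with tracts of at least 12 bp, and passed at over 10 kb from a start (-6.16, adjusted p = 0.0425, Fisher's exact test). Unique flanks turned to 0.431 at that q, and reads to -0.612 with a threshold of 20 reads. The causes were not tested.

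The share of CA arrays overlapping a peak was 0.257% at 10 bp overlap, 0.158% when the array held the summit, 0.357% unmerged, 0.223% merged across 50 bp and 0.139% at that q. In points, the length difference (60 and more minus 20 to 39 CA bases) went from 1.72 to 1.53 for summits, 1.35 across 50 bp and 0.880 at that q, and turned to -0.0354 unmerged. Unmerged tracts leave each long array in short pieces. The difference between at least 4 tracts and 1 tract went from 0.865 to 0.582 for summits, 0.209 across 50 bp and 0.303 at that q, and that for CG from 2.49 to 1.78 and 0.977. The difference for a GA tract nearby was 0.0378, and 0.0362 at that q, but turned to -0.0173 at 10 bp overlap, -0.0322 for summits, -0.0950 unmerged and -0.0272 for GA tracts of at least 20 bp. A summit lay in a CA tract of at least 20 bp in 32.2% of distal CA peaks and within 10 bp of a tract in 97.3%. The response element reached 1.17% with 2 mismatches, and unique flanks 51.1% with 25-mers. Summits of 12 to 15 reads limit the precision of each peak, and with 1 library no value separates genotype from library.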
